A study of Mus musculus with 186 samples.

Results

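The 5 genes Drd1, Drd2, Drd3, Drd4 and Drd5 encode the dopamine receptors of the mouse. They were taken by symbol from a table of 28338 genes and followed through 186 brain RNA-seq libraries, and all 5 were present. The tissue was striatum (ST), substantia nigra (SN), thalamus (TH), hippocampus (HP) or one of 2 cortical areas, somatosensory (SSC) and prefrontal (PFC), of mice 4 or 12 weeks old. The mice were wild type (WT), Akap11 +/- (HET) or Akap11 -/- (KO), which gives 36 groups of 5 or 6 libraries. Akap11 encodes a scaffold that holds protein kinase A (PKA). Each library was made from tissue microdissected from frozen brain. No source used here gives the design of the Akap11 allele, the strain or the sex of the mice. Nothing in the labels says that libraries of a group came from separate animals, so p-values measure the spread between these libraries. The same replicate numbers recur across regions within a genotype and age, and the labels do not say whether they mark the same mouse. Comparisons between regions treat such libraries as independent, apart from 1 fit with the number as a block.

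Dopamine receptors are G protein-coupled receptors of 2 classes. The D1-like receptors, encoded by Drd1 and Drd5, couple to stimulatory G proteins and raise cAMP, which activates PKA. The D2-like receptors, encoded by Drd2, Drd3 and Drd4, couple to inhibitory G proteins and lower cAMP. In the striatum Drd1 marks the projection neurons of the direct pathway and Drd2 those of the indirect pathway, and midbrain dopamine neurons carry Drd2 as an autoreceptor.

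Library totals ran from 20.8 to 73.3 M expected counts, so 3 counts, taken as the floor of detection, equalled 0.0395 to 0.145 CPM (a gene's count relative to its library's total). Levels below are CPM scaled by the trimmed mean of M-values (TMM) over all 186 libraries. Akap11, the targeted gene, stood in KO at 5.08% to 7.98% of its WT mean, and KO libraries lay below all WT and HET libraries in each of 12 combinations of region and age. The HET libraries were below all WT libraries in 11 of the 12. The exception was SN at 4 weeks, where WT replicate 92 held 44.8 CPM of Akap11. That is below every HET library there (97.8 to 139 CPM), and the WT median was 221 CPM. The reason was not tested, so the WT label of this library is uncertain. It stays in the main SN values at 4 weeks. Marker scores, each the mean log2(CPM + 1) of a gene list, set 13 libraries apart. No cutoff of the scores is given for this choice, and values without these libraries were added after seeing the data. In ST at 4 weeks these were KO replicates 51, 161 and 163 and WT replicate 92, with high cortical scores. A cutoff at the highest cortical score of the 12-week striatal libraries (1.54) would leave 2 KO, 3 HET and 2 WT libraries there. The choice made here thus took fewer WT and HET libraries than that cutoff. In SN at 4 weeks the libraries set apart were KO replicates 44 and 91 and WT replicates 42 and 92, with low dopamine neuron scores. In TH at 4 weeks WT replicates 913 and 914 had low thalamic scores, and in SSC HET replicates 93 and 162 at 4 weeks and 5 at 12 weeks had high striatal scores. The main results that rest on them are given with and without them. In such bulk samples, fewer cells of a type and less RNA per cell cannot be told apart.

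By the GENCODE M21 annotation of GRCm38, the build called mm10 in the submitters' processing notes, Drd1 lies on chr13:54051183-54055705 (minus strand, 2 exons) and Drd5 on chr5:38319367-38322518 (plus strand, 1 exon). Drd2 lies on chr9:49340627-49408177 (plus strand, 8 exons), Drd3 on chr16:43754026-43822932 (plus strand, 8 exons) and Drd4 on chr7:141292006-141296464 (plus strand, 4 exons). An antisense gene, Gm26560, overlaps Drd5, and no source used here says whether the counting used the strand, so the Drd5 values are uncertain to that extent. A miRNA gene, Gm25996, lies within Drd3. The bases just before the start sites of the 3 receptors with the highest levels are shown because their levels are compared across regions below. They are RefSeq sequences of GRCm38.p6, read 5′ to 3′ on the strand of each gene and cut where the annotated gene begins, with GC boxes (GGGCGG on either strand) in capitals.
Drd1 (chr13:54055706-54055908, minus strand): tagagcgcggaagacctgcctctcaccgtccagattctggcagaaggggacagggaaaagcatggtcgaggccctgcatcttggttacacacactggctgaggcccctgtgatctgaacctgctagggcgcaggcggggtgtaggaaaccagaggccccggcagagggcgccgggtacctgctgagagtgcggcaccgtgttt
Drd2 (chr9:49340153-49340402, plus strand): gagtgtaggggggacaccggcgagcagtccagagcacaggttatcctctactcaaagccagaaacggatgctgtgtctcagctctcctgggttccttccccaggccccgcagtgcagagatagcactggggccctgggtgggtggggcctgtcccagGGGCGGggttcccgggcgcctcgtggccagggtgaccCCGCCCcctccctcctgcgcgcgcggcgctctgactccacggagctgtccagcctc
Drd5 (chr5:38319259-38319366, plus strand): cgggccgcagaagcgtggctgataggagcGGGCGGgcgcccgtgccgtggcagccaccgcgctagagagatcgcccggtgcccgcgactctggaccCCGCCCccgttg
In windows of 250 bases before each RefSeq start, Drd2 held 2 GC boxes, Drd5 held 2 and Drd4 held 3, while Drd3 held 0. The Drd3 window (chr16:43761971-43762220) lay inside the annotated gene, so it does not describe the bases before that gene's annotated start. Of the RefSeq starts of Drd1, the outer one, shown above, held 0 and the inner one held 1. The window of the inner start (chr13:54054781-54055030) also lay inside the annotated gene. The windows of the outer Drd1 start, Drd4 and Drd5 ran on into the annotated gene, and only 108 of the 250 bases of Drd5 lay before it. A GC box occurs in 32.7% of the 32851 windows of that length. The CRE half-site TGACG, found in 17.8% of windows, and the letters TATAAA, found in 12.4%, were in none of the windows of the 5 genes on either strand. The windows of Drd1 (outer start), Drd2 and Drd5 had 64.0%, 68.8% and 71.2% G and C, against a median of 52.4%. The Drd3 window, inside the gene, had 39.2%.

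The first question was where each receptor was transcribed in WT brain. Drd1 transcripts were concentrated in striatum, at 467 ± 74.7 CPM (SD, n = 5) at 4 weeks and 414 ± 39.9 CPM (SD, n = 5) at 12 weeks. The 5 striatal libraries at 4 weeks held 374, 583, 454, 462 and 462 CPM, and those at 12 weeks held 359.7, 410.0, 463, 442 and 398 CPM. Every one of these libraries stood far above the prefrontal cortex, the next region, which averaged 13.7 ± 3.90 CPM at 4 weeks and 9.82 ± 1.11 CPM at 12 weeks (SD, n = 5 each). Drd1 averaged 7.83 CPM in SSC and 5.31 CPM in HP at 4 weeks, and 6.27 and 8.63 CPM at 12 weeks. It was lowest in SN and TH, with means between 1.59 and 2.52 CPM.

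Drd5, the other D1-like receptor, had another order of regions. It was highest in hippocampus, at 16.5 ± 2.32 CPM (SD, n = 6) at 4 weeks and 19.9 ± 2.04 CPM (SD, n = 5) at 12 weeks. The hippocampal libraries ranged from 14.3 to 20.04 CPM (median 15.6) at 4 weeks, and held 18.1 to 23.2 CPM at 12 weeks. Striatum followed at 12 weeks with 4.83 ± 0.869 CPM (SD, n = 5), and thalamus at 4 weeks with 6.27 ± 3.89 CPM (SD, n = 6). The lowest means, 0.803 CPM at 4 weeks and 0.790 CPM at 12 weeks, were in SSC, while PFC held 4.07 and 3.47 CPM.

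Drd2 was highest in striatum, at 299.9 ± 57.7 CPM (SD, n = 5) at 4 weeks and 303 ± 47.0 CPM (SD, n = 5) at 12 weeks. Its second region was substantia nigra, where 6 libraries ranged from 8.71 to 70.6 CPM (median 29.5) at 4 weeks. At 12 weeks the 5 nigral libraries held 78.7, 92.2, 95.7, 87.9 and 103 CPM. TH and HP held 5.74 and 2.70 CPM at 4 weeks and 4.30 and 3.24 CPM at 12 weeks. PFC was low at both ages, 0.820 and 0.864 CPM, and SSC held 1.40 CPM at 4 weeks and 0.213 CPM at 12 weeks.

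Drd3, known from limbic striatum, and Drd4, known from cortex and retina, were rare everywhere. Drd3 was highest in striatum, at 0.640 ± 0.590 CPM at 4 weeks and 0.985 ± 0.518 CPM at 12 weeks (SD, n = 5 each). In PFC 26 of 31 libraries of all genotypes held no Drd3 count and in SSC 23 of 31, and 30 of 31 in each region held under 3 counts. Drd4 was highest in thalamus, at 0.720 ± 0.296 CPM (SD, n = 6) at 4 weeks and 0.749 ± 0.299 CPM (SD, n = 5) at 12 weeks. PFC held 0.436 and 0.406 CPM of Drd4, and SN held 0.0720 and 0.0405 CPM, with 16 of 32 nigral libraries under 3 counts.

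**Figure D1:**
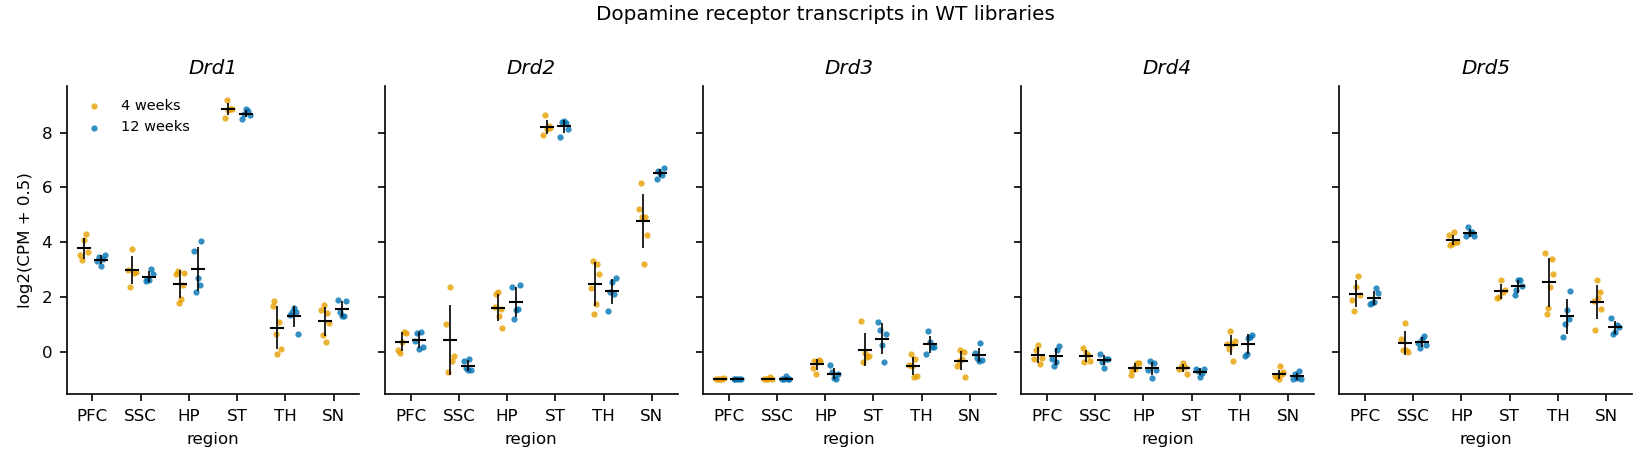
Level of each dopamine receptor gene in every WT library, as log2(CPM + 0.5), by region (PFC and SSC, cortex; HP, hippocampus; ST, striatum; TH, thalamus; SN, substantia nigra). Orange points are 4-week and blue points 12-week libraries, and black bars are the mean and SD of 5 or 6 libraries. Drd1 and Drd2 stand highest in striatum, Drd2 also in SN, and Drd5 highest in hippocampus.

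Levels of different genes were compared per length of the longest coding transcript (CPM per kb). In WT striatum at 4 weeks Drd1 stood at 131 CPM per kb and Drd2 at 118 CPM per kb. At 12 weeks the means were 116 CPM per kb for Drd1 and 119 CPM per kb for Drd2. Drd5 and Drd3 were far lower in the same tissue, at 1.53 and 0.575 CPM per kb at 12 weeks. In hippocampus Drd5 led the family, with 6.32 CPM per kb at 12 weeks against 2.41 for Drd1 and 1.27 for Drd2. In substantia nigra Drd2 led, with 36.0 CPM per kb at 12 weeks, and Drd1 followed at 0.705.

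Regions were ordered by mean log2(CPM + 0.5) for each gene and age, and each region was set against the next in that order by a two-sided exact permutation test, with Benjamini-Hochberg adjustment over the 50 neighbouring pairs. At an adjusted p of 0.05, 17 of 50 pairs differed. With 5 against 5 libraries the smallest exact p is 0.00794. Folds below are ratios of mean CPM, while the tests were on log2(CPM + 0.5), a scale that understates differences of low genes. Striatum stood above the next region for Drd1, 34.1-fold at 4 weeks and 42.2-fold at 12 weeks (exact permutation, adjusted p = 0.0248 each). For Drd2 striatum stood 9.28-fold and 3.304-fold above substantia nigra, which in turn stood 5.63-fold and 21.3-fold above thalamus (exact permutation, adjusted p = 0.0248 each). Hippocampal Drd5 stood 2.63-fold above thalamus at 4 weeks and 4.12-fold above striatum at 12 weeks (exact permutation, adjusted p = 0.0248 each).

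The other separated pairs lay lower in the orders. Drd1 was higher in HP than in SN at 4 weeks (2.97-fold) and in SSC than in SN at 12 weeks (2.49-fold; exact permutation, adjusted p = 0.0248 each). Drd2 at 12 weeks was 3.76-fold higher in HP than in PFC and 4.06-fold higher in PFC than in SSC (exact permutation, adjusted p = 0.0248 each). Drd5 was higher in SN than in SSC, 4.14-fold at 4 weeks and 1.76-fold at 12 weeks (exact permutation, adjusted p = 0.0255 and 0.0248). Drd4 at 4 weeks was 2.401-fold higher in SSC than in HP (exact permutation, adjusted p = 0.0248). Drd3 was higher in TH than in SSC at 4 weeks, with means of 0.2101 and 0.00491 CPM, and in SN than in HP at 12 weeks, with means of 0.437 and 0.0808 CPM (exact permutation, adjusted p = 0.0248 each). The lower mean of each Drd3 pair was within the range of the floor of 3 counts or under it, so no fold is given.

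The other 33 pairs were not separated. Neighbours among PFC, SSC and HP did not differ beyond the spread in Drd1 at either age (exact permutation, adjusted p from 0.0882 to 0.576). HP and SSC changed places between the ages. PFC and HP at 4 weeks, and PFC and SSC at 12 weeks, were not neighbours and were not compared. Their WT libraries held 9.75 to 19.1 and 2.95 to 7.31 CPM of Drd1 at 4 weeks. At 12 weeks they held 8.18 to 11.1 and 5.50 to 7.74 CPM. Drd3 in striatum was 1.99-fold above SN at 4 weeks (exact permutation, adjusted p = 0.408) and 1.34-fold above TH at 12 weeks (adjusted p = 0.576), so its leading region was not separated from the next. Drd4 in thalamus was 1.65-fold and 1.84-fold above PFC (exact permutation, adjusted p = 0.172 and 0.142). For Drd5 the neighbours TH and ST, ST and PFC, and PFC and SN were not separated at 4 weeks, nor were ST and PFC, PFC and TH, and TH and SN at 12 weeks. ST and TH were not neighbours at 12 weeks and were not compared there. Without the libraries set apart all 10 orders of regions were the same and 12 pairs were separated. The 5 pairs lost, all at 4 weeks, were the first of Drd1 (adjusted p = 0.0567), the first and second of Drd2 (0.0835 each), TH above SSC for Drd3 (0.0567) and SN above SSC for Drd5 (0.0835, all by exact permutation). All but the Drd5 pair were then without overlap, with 4 or 5 libraries a region. Their exact permutation p before adjustment, 0.0159 or 0.0286, was the smallest possible with so few libraries. The loss of those calls therefore does not show less separation. The Drd2 pair of SN and TH had overlapped with all libraries.

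The second question was whether loss of Akap11 moved the receptors. In each of the 12 sets (a set is 1 region at 1 age), edgeR's quasi-likelihood test was fitted over all genes and adjusted by the Benjamini-Hochberg method. A low-count filter left 49 of the 60 pairs of receptor and set to be tested. Drd1, Drd2 and Drd5 were tested in 12 of 12 sets, Drd4 in 7 and Drd3 in 6. None of the 49 was called between KO and WT at an adjusted p under 0.05, the smallest adjusted p being 0.135. At an unadjusted p under 0.05 there were 8, or 16.3% of the tested pairs against 8.73% of all genes tested in these sets. DESeq2 called 1 of the pairs. HET and KO were compared with the same WT libraries.

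In striatum, the region with by far the most genes called between KO and WT (3.35% of tested genes at 4 weeks and 4.42% at 12 weeks), Drd1 and Drd2 were not among the called genes. The 5 KO libraries at 4 weeks held 618, 465, 257, 214 and 322 CPM of Drd1, against 374 to 583 CPM in WT. KO libraries lay both above and below the whole WT range, and the 3 low ones were those with high cortical scores. The log2 fold change was -0.32 ± 0.22 (SE, 95% interval -0.78 to 0.15, edgeR adjusted p = 0.495). Without the libraries set apart it was 0.20 (adjusted p = 0.548), the opposite sign. With the cortical score in the fit over all libraries it was -0.16 (edgeR adjusted p = 0.658).

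Drd2 followed the same order of libraries. Its KO levels at 4 weeks were 408, 320.1, 151, 135 and 219 CPM, against 239 to 395 CPM in WT. The log2 fold change was -0.28 ± 0.24 (SE, 95% interval -0.79 to 0.22, edgeR adjusted p = 0.591), and 0.27 (adjusted p = 0.422) without the libraries set apart. With the cortical score in the fit over all libraries it was -0.14 (edgeR adjusted p = 0.758). All 8 cortical and hippocampal excitatory markers were above 0 in both groups; their summed level ranged from 22.9 to 1920.2 CPM in KO (median 951) and from 30.7 to 1043 CPM in WT (median 43.9). Beyond leaving the libraries out and the fits with the cortical score, the part of these markers in the Drd1 and Drd2 values was not tested.

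At 12 weeks, where no striatal library stood apart, the changes were small. Drd1 levels in KO were 420.4, 407, 363, 380.1 and 417 CPM, all within the WT range of 359.7 to 463 CPM. The log2 fold change of Drd1 was -0.07 ± 0.07 (SE, 95% interval -0.22 to 0.07, edgeR adjusted p = 0.696). Drd2 held 296.8, 265, 229, 269 and 273 CPM in KO and 229 to 341 CPM in WT. Its log2 fold change was -0.19 ± 0.10 (SE, 95% interval -0.41 to 0.02, edgeR adjusted p = 0.388). The intervals thus reach a fall of 0.22 for Drd1 and of 0.41 for Drd2 on the log2 scale.

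Drd5 in striatum moved in opposite directions at the ages without passing the threshold at either. At 4 weeks the KO libraries held 5.11 to 5.75 CPM and the WT libraries 3.38, 3.50, 5.64, 4.10 and 4.30 CPM. Only WT replicate 42 lay inside the KO range. The log2 fold change was 0.37 ± 0.13 (SE, edgeR adjusted p = 0.135); without WT replicate 42 it was 0.50 with an adjusted p of 0.0318, so this call depends on 1 library. Without WT replicate 92 and the 3 KO libraries with high cortical scores it was 0.36 (edgeR adjusted p = 0.362). At 12 weeks KO libraries held 2.96 to 4.64 CPM and WT libraries 3.70 to 5.73 CPM, a log2 fold change of -0.28 ± 0.14 (SE, edgeR adjusted p = 0.350). The difference between the KO changes at the ages, tested in one fit over both, was -0.66 ± 0.19 for Drd5 (SE, edgeR adjusted p = 0.479). No gene passed the threshold in that fit (0% of 15990 genes, with 1090 at an unadjusted p under 0.05, and 0 receptors called by DESeq2).

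**Figure D2:**
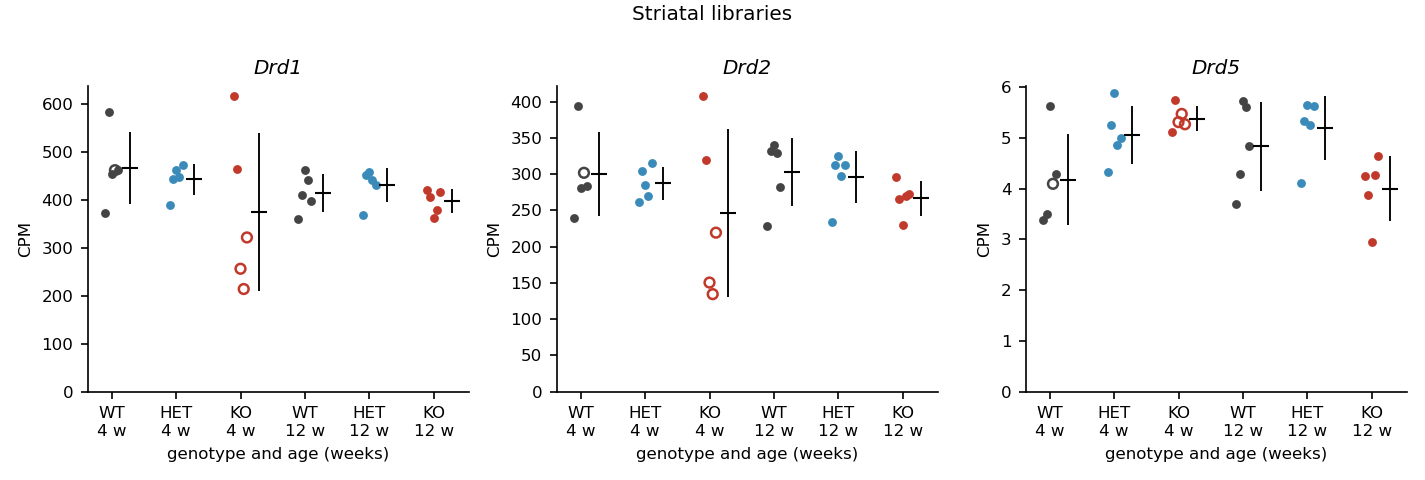
Level of Drd1, Drd2 and Drd5 in each striatal library in CPM, by genotype and age in weeks (w), with the mean and SD of 5 libraries beside the points. Open circles are the 4 libraries at 4 weeks that were set apart for high cortical marker scores. The 3 open KO circles lie at 214 to 322 CPM of Drd1, below every WT library, while the filled KO points lie at 465 and 618 CPM.

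In thalamus at 4 weeks Drd1 and Drd2 were lower in KO. Drd1 held 0.242 to 0.655 CPM in the 5 KO libraries and 0.451 to 3.12 CPM (median 1.35) in the 6 WT libraries. Its log2 fold change was -1.71 ± 0.47 (SE, edgeR adjusted p = 0.211), not called, against 0.0128% of genes called in that comparison. DESeq2 gave -1.70 with an adjusted p of 0.0324, with 1.28% of genes called by that tool. Drd2 held 3.00 to 3.42 CPM in KO and 2.13 to 9.46 CPM in WT, a log2 fold change of -0.87 ± 0.36 (SE, edgeR adjusted p = 0.315).

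These thalamic values moved with the WT libraries set apart. All 8 pan striatal projection neuron genes were above 0 in both groups, at a summed 579.5 to 1403 CPM in WT and 453 to 735 CPM in KO. The 6 thalamic markers summed to 2545 to 6245 CPM in WT and 4824 to 6589.7 CPM in KO. Their part in these values was not tested beyond leaving the WT libraries out. Without WT replicates 913 and 914 the log2 fold change of Drd1 was -0.92 (edgeR adjusted p = 0.416) and that of Drd2 was -0.70 (adjusted p = 0.524). At 12 weeks Drd1 held 0.680 to 2.57 CPM in KO and 1.06 to 2.56 CPM in WT, and neither receptor was called (0.0064% of genes called).

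In hippocampus at 4 weeks both Drd1 and Drd2 were higher in KO without passing the threshold. Drd2 held 5.10, 5.51, 6.90, 3.86 and 3.52 CPM in KO and 1.32 to 4.09 CPM (median 2.51) in WT, a log2 fold change of 0.89 ± 0.27 (SE, edgeR adjusted p = 0.725). Drd1 held 4.94 to 11.4 CPM in KO and 2.95 to 7.31 CPM in WT, a change of 0.69 ± 0.31 (SE, edgeR adjusted p = 0.749). The pan striatal score ranged from 4.38 to 5.35 (median 5.21) in KO and from 4.55 to 4.88 (median 4.61) in WT, with all 8 genes above 0 and a summed level of 467 to 686 CPM in KO and 461 to 667 CPM in WT. With that score in the fit Drd1 changed by 0.09 and Drd2 by 0.72. At 12 weeks Drd2 averaged 5.40 CPM in KO and 3.24 CPM in WT, a log2 fold change of 0.72 ± 0.35 (SE, edgeR adjusted p = 0.998). The share of all genes called in hippocampus was 0.00609% at 4 weeks and 0.00608% at 12 weeks.

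In substantia nigra at 12 weeks Drd2 held 93.5, 58.4, 51.2, 73.8 and 64.8 CPM in KO and 78.7 to 103 CPM in WT. Only KO replicate 2 lay inside the WT range. The log2 fold change was -0.43 ± 0.13 (SE, edgeR adjusted p = 0.649), while 0.0364% of genes were called. Drd5 ran the other way, at 1.65 to 2.37 CPM in KO and 1.07 to 1.85 CPM in WT (0.45 ± 0.19, SE, edgeR adjusted p = 0.715). The 11 midbrain dopamine neuron markers, all above 0 in both groups, summed to 2988 to 4646 CPM in KO and 4046 to 5287 CPM in WT. With their score in the fit the changes were -0.12 for Drd2 and 0.12 for Drd5. At 4 weeks the KO and WT means of Drd2 were 32.5 and 32.3 CPM (log2 fold change 0.02 ± 0.50, SE, edgeR adjusted p = 0.993; 0.00617% of genes called), and without the libraries set apart the change was 0.198 (adjusted p = 0.854).

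No cortical receptor was called between KO and WT. PFC Drd5 at 4 weeks averaged 2.33 ± 1.04 CPM in KO and 4.07 ± 1.53 CPM in WT (SD, n = 5 each), a log2 fold change of -0.80 ± 0.38 (SE, edgeR adjusted p = 0.328; 0.0125% of genes called). The 5 oligodendrocyte markers, all above 0, summed to 316 to 1330.0 CPM in KO and 672 to 1884 CPM in WT, and their part in this value was not tested. PFC at 12 weeks had no receptor at an unadjusted p under 0.05 (0.0123% of genes called). SSC Drd2 at 12 weeks held 0.338 to 2.39 CPM in KO and 0.134 to 0.334 CPM in WT, without overlap. The WT values rest on 7 to 14 counts per library, and the share of all genes without overlap was not counted. Its log2 fold change of 2.41 ± 1.24 was not called (SE, edgeR adjusted p = 1.00; 0.0252% of genes called). Without the HET library set apart, which enters the shared estimate of spread, it was 2.40 ± 0.53 (SE, edgeR adjusted p = 0.317), also not called. The pan striatal genes, 8 of 8 above 0, summed to 1271 to 1386 CPM in KO and 1097 to 1305 CPM in WT, and their part was not tested. All SSC receptors at 4 weeks had intervals that included 0 (0.0564% of genes called).

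**Figure D3:**
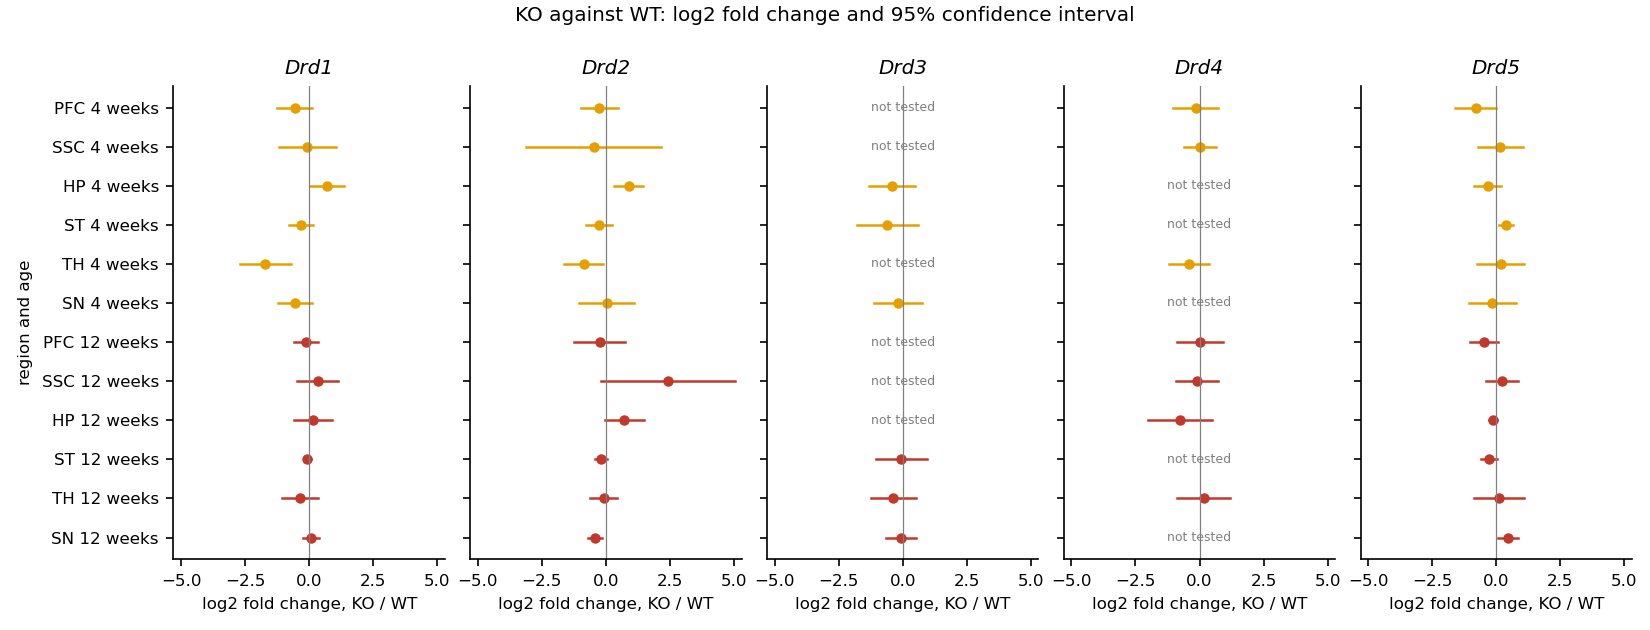
Log2 fold change of KO over WT for each receptor in the 12 sets of region and age, from the edgeR fits, with 95% confidence intervals; orange is 4 weeks and red is 12 weeks. None of the 49 tested pairs passed an adjusted p of 0.05, and 11 pairs were removed by the low-count filter and are marked as not tested.

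The change in striatum was also set against the mean change in the other 5 regions. At 4 weeks this difference was 0.14 ± 0.41 for Drd1 (SE, edgeR adjusted p = 0.953), -0.13 ± 0.65 for Drd2 (adjusted p = 0.983) and 0.56 ± 0.43 for Drd5 (adjusted p = 0.637), with 3.52% of all genes called. At 12 weeks it was -0.09 ± 0.29 for Drd1 (adjusted p = 0.984), -0.68 ± 0.46 for Drd2 (adjusted p = 0.616) and -0.32 ± 0.29 for Drd5 (adjusted p = 0.772), with 3.11% of genes called. Drd3 and Drd4 were not called at either age. With the replicate number as a block (limma-voom), Drd1, Drd2 and Drd5 gave -0.0097, -0.37 and 0.58 at 4 weeks and -0.08, -0.55 and -0.29 at 12 weeks, and 0 receptors were called. Without the libraries set apart the 4-week differences were 0.55 for Drd1, 0.38 for Drd2, now above 0, and 0.63 for Drd5 (edgeR adjusted p = 0.499, 0.762 and 0.5998), with 1.51% of genes called.

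Among HET libraries 0 of 49 tested pairs were called, with 8 at an unadjusted p under 0.05 (16.3% of the tested pairs against 5.39% of all genes tested) and 0 called by DESeq2. Akap11 itself was not called in HET at 4 weeks in HP (-0.82, edgeR adjusted p = 0.273) or SN (-0.69, adjusted p = 0.548). It was called in every other set. In HP and SN at 4 weeks the lack of receptor calls in HET therefore says little. The largest changes were in SSC and came with the libraries set apart. Drd2 in SSC HET at 4 weeks held 37.8 and 17.8 CPM in replicates 93 and 162 and at most 0.614 CPM in the other 4, against 0.101 to 4.65 CPM in WT. At 12 weeks HET replicate 5 held 17.3 CPM of Drd2 and the other 4 held 0.124 to 0.458 CPM, against 0.134 to 0.334 CPM in WT. The log2 fold changes of Drd2, 2.70 at 4 weeks and 4.15 at 12 weeks, became -1.43 and 0.38 without these libraries (edgeR adjusted p = 0.789 and 1.00 with them, 0.947 and 1.00 without).

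Drd1 showed the same libraries high, at 51.1 and 29.1 CPM at 4 weeks and 29.8 CPM at 12 weeks, where all other SSC libraries held at most 13.1 CPM. The pan striatal genes, 8 of 8 above 0, summed to 880.2 to 1920.3 CPM in SSC HET at 4 weeks and to 1012 to 1241 CPM in WT, and at 12 weeks to 1183 to 1631 and 1097 to 1305 CPM. Their part in the Drd1 and Drd2 levels was not tested beyond the values without these libraries. The shares of genes called between HET and WT in SSC were 0.00627% at 4 weeks and 0.00629% at 12 weeks.

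In striatum HET libraries stayed close to WT for the abundant receptors. Drd1 changed by -0.07 ± 0.22 at 4 weeks and 0.06 ± 0.07 at 12 weeks (SE, edgeR adjusted p = 1.00 each), and Drd2 by -0.05 ± 0.24 and -0.03 ± 0.10 (adjusted p = 1.00 each). Drd5 in HET at 4 weeks was 4.33 to 5.88 CPM against 3.38 to 5.64 CPM in WT, a change of 0.28 ± 0.13 (SE, edgeR adjusted p = 1.00). The shares of genes called were 0.00648% and 0.0064%. In thalamus Drd1 was lower in HET at both ages, by 1.31 at 4 weeks and 0.76 at 12 weeks on the log2 scale, with edgeR adjusted p of 0.220 and 0.513 and with 0.00639% and 0.0064% of genes called. Without the WT libraries set apart the 4-week value was -0.52, and the 8 pan striatal genes summed to 450.3 to 625.3 CPM in HET and 579.5 to 1403 CPM in WT at that age. In substantia nigra at 4 weeks Drd2 averaged 67.9 CPM in HET and 32.3 CPM in WT, a log2 fold change of 1.06 ± 0.48 (SE, edgeR adjusted p = 0.548; 0% of genes called). The 11 dopamine neuron markers summed to 1448 to 6074 CPM in HET and 186 to 3744 CPM in WT. With their score in the fit the change was 0.02, and without the WT libraries set apart it was 0.71. In SN at 12 weeks (0.00606% called), HP at 4 weeks (0%) and 12 weeks (0.00608%), and PFC at 4 weeks (0.00626%) and 12 weeks (0.00613%) no receptor reached an unadjusted p of 0.05 in HET.

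The balance of the striatal receptors was measured as the log2 ratio of Drd1 to Drd2 CPM within each library. At 4 weeks it was 0.64 ± 0.06 in WT, 0.62 ± 0.08 in HET and 0.63 ± 0.09 in KO (SD, n = 5 each). The KO libraries with high cortical scores had ratios of 0.77, 0.67 and 0.55, within the span of the other KO and WT libraries apart from the first, although their Drd1 and Drd2 levels were the lowest. At 12 weeks the ratio was 0.46 ± 0.13 in WT, 0.55 ± 0.07 in HET and 0.58 ± 0.07 in KO (SD, n = 5 each). KO exceeded WT by 0.11 at 12 weeks (two-sided exact permutation p = 0.0952, adjusted over 4 comparisons p = 0.381), and the groups overlapped. The smallest p of this test with 5 against 5 is 0.00794. At 4 weeks, leaving out the striatal libraries with a cortical score above every 12-week library left 2 KO, 3 HET and 2 WT libraries, and the difference from WT was -0.13 in KO (exact permutation p = 0.333, the smallest possible) and -0.08 in HET (exact permutation p = 0.600).

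Drd1 and Drd2 rose and fell together from library to library. Across the 15 striatal libraries at 4 weeks Pearson's r of their log2 levels was 0.987 and Spearman's rho 0.932 (permutation p = 1e-05 each, the smallest that 100000 permutations give). Across the 15 libraries at 12 weeks r was 0.9002 (permutation p = 1e-05) and rho 0.850 (permutation p = 0.00014). Without the 2 libraries farthest from the median of Drd1, r was 0.963 and 0.827. With genotype means subtracted it was 0.986 and 0.920, and over the 11 libraries at 4 weeks that were not set apart it was 0.955. Correlations were computed for 4 relations at each age, 8 in all, picked with their values in view. Over these 8 the adjusted permutation p for r was at most 0.00031. Neither the permutation p-values nor this adjustment allow for that choice, so they do not measure how often such relations arise by chance.

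The third question was how the receptors differed between 4 and 12 weeks in WT. A difference between the ages cannot be told apart from one between any sets in which the ages were dissected or processed. All 16 libraries with few whole-number counts were at 4 weeks, as were most of those set apart. Rises and falls below are differences between these groups of libraries. Of 27 pairs of receptor and region that passed the low-count filter, 5 were called by edgeR at an adjusted p under 0.05, 2 higher and 3 lower at 12 weeks. This share, 5 of 27, was near that of all genes, of which 18.6% were called in SN, 22.6% in TH, 17.7% in HP, 18.5% in ST, 19.1% in PFC and 27.1% in SSC. With all libraries Drd1 and Drd4 were called in no region, and no receptor was called in ST, PFC or SSC.

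In substantia nigra Drd2 rose and Drd5 fell. Drd2 went from 32.3 ± 21.2 CPM (SD, n = 6) to 91.6 ± 9.20 CPM (SD, n = 5), with no overlap of the libraries, a log2 fold change of 1.499 ± 0.39 (SE, edgeR adjusted p = 0.00840). Drd5 went from 3.33 ± 1.498 CPM to 1.39 ± 0.311 CPM, a change of -1.27 ± 0.36 (SE, edgeR adjusted p = 0.0128). The dopamine neuron score ranged from 2.20 to 6.93 at 4 weeks and from 7.17 to 7.61 at 12 weeks in WT, and the 11 markers, all above 0, summed to 186 to 3744 CPM and 4046 to 5287 CPM. With that score in the fit, the change of Drd2 was 0.14 (edgeR adjusted p = 0.745) and that of Drd5 was -0.68 (adjusted p = 0.467). Without the libraries set apart, both were called, at 1.14 for Drd2 and -1.35 for Drd5. With WT libraries only, Drd2 kept its call (1.52, edgeR adjusted p = 0.0489) and Drd5 lost it (-1.26, adjusted p = 0.0510).

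In thalamus Drd3 rose and Drd5 fell. Drd3 held 0.0301 to 0.437 CPM (median 0.209) in the 6 libraries at 4 weeks and 0.460, 1.18, 0.782, 0.619 and 0.637 CPM in the 5 at 12 weeks. The libraries did not overlap, and the log2 fold change was 1.78 ± 0.51 (SE, edgeR adjusted p = 0.0120). These levels rest on 1 to 23.0 counts per library at 4 weeks and 19 to 62.1 at 12 weeks. Drd5 went from 6.27 ± 3.89 CPM to 2.17 ± 1.26 CPM, a change of -1.54 ± 0.47 (SE, edgeR adjusted p = 0.0179), with overlapping libraries. This call was lost without 4-week WT replicate 913 (-1.24, adjusted p = 0.0566) or without 12-week replicate 1 (-1.36, adjusted p = 0.0521) or 2 (-1.44, adjusted p = 0.0505), and in a fit of WT libraries only (-1.54, adjusted p = 0.0662). Drd1, not called with all libraries (0.34 ± 0.39), rose by 1.14 without the libraries set apart (edgeR adjusted p = 0.0350), where Drd3 rose by 2.31 and Drd5 fell by 1.45 (adjusted p = 0.00738 and 0.0277).

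In hippocampus Drd3 fell from 0.239 ± 0.0961 CPM (SD, n = 6) to 0.0808 ± 0.0838 CPM (SD, n = 5). The log2 fold change of -1.42 ± 0.49 was just past the threshold (SE, edgeR adjusted p = 0.0414). It was based on at most 16 counts per library and was lost when any of 8 of the 11 WT libraries was left out, and in a fit of WT libraries only (adjusted p = 0.138). Drd2 in SSC, with a change of -2.81 ± 1.497 (SE, edgeR adjusted p = 0.168), was called at -2.77 without the 3 HET libraries set apart (adjusted p = 0.00902), which enter the shared estimate of spread, and at -2.78 with WT libraries only (adjusted p = 0.0199). Striatal Drd1 and Drd2 changed by -0.14 ± 0.17 and 0.04 ± 0.19 between the ages (SE, edgeR adjusted p = 0.611 and 0.911).

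Outside striatum some receptor levels varied together with marker scores from library to library. The relations in SN and PFC were also picked with their values in view, so their permutation p-values do not allow for that choice. In substantia nigra log2 Drd2 followed the dopamine neuron score with r = 0.974 and rho = 0.978 over 17 libraries at 4 weeks (permutation p = 1e-05 each). At 12 weeks r was 0.959 (permutation p = 1e-05) and rho 0.896 (permutation p = 2e-05) over 15 libraries. Leaving out the 2 libraries farthest from the median score gave r = 0.962 and 0.913, and the 13 libraries at 4 weeks not set apart gave 0.976.

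Drd1 and Drd5 in prefrontal cortex varied together, with r = 0.919 (permutation p = 1e-05) and rho = 0.921 (permutation p = 2e-05) over 16 libraries at 4 weeks. At 12 weeks r was 0.792 (permutation p = 0.00031) and rho 0.746 (permutation p = 0.0020) over 15 libraries. Drd1 there also followed the score of 5 oligodendrocyte markers, with r = 0.949 at 4 weeks (rho 0.921, permutation p = 1e-05 each). At 12 weeks r was 0.802 (permutation p = 0.00023) and rho 0.811 (permutation p = 0.00046). Without the 2 farthest libraries r was 0.854 and 0.615 for Drd1 with Drd5, and 0.924 and 0.780 for Drd1 with the score. Outside the subset of 4-week libraries with few whole-number counts, the 4-week r values were 0.976 in SN, 0.926 and 0.955 in PFC and 0.981 in ST. The subset held 2 to 4 libraries of each set, too few for a value of its own.

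**Figure D4:**
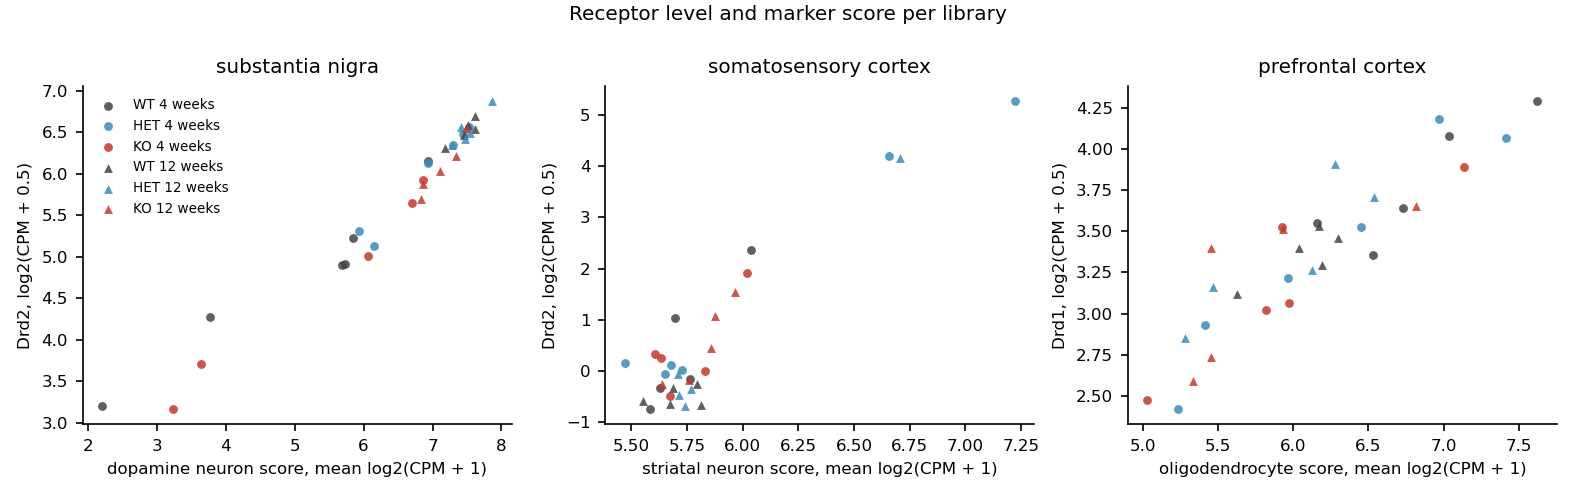
Receptor level, log2(CPM + 0.5), against a marker score, mean log2(CPM + 1), in each library: Drd2 and dopamine neuron markers in substantia nigra, Drd2 and pan striatal genes in somatosensory cortex, Drd1 and oligodendrocyte markers in prefrontal cortex. Circles are 4-week and triangles 12-week libraries, coloured by genotype. In SN the 4-week libraries spread from 8.51 to 93.9 CPM of Drd2 along the score, and in SSC 3 HET libraries stand apart at 17.3 to 37.8 CPM.

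Genes of the receptors' pathways were then read in striatum, KO against WT, where 3.35% of genes were called at 4 weeks and 4.42% at 12 weeks, with medians over all genes of -0.0015 and 0.0053 on the log2 scale. Of 10 genes for dopamine synthesis, transport and breakdown, 0 were called at either age. Of 13 G protein and adenylyl cyclase genes, Adcy1 was called at both ages. Adcy1, which encodes a calcium-stimulated cyclase, averaged 551 ± 70.1 CPM in KO and 317 ± 77.5 CPM in WT at 4 weeks (SD, n = 5 each; log2 fold change 0.80 ± 0.14, SE, edgeR adjusted p = 0.00541). At 12 weeks it averaged 393 and 252.02 CPM (0.63 ± 0.10, SE, edgeR adjusted p = 0.00164), and the groups overlapped at neither age. The list medians were -0.01 and 0.03.

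Of 17 regulators of receptor signalling, 0 were called at 4 weeks, and 3 were higher and 2 lower at 12 weeks; the 4 with the smallest adjusted p follow. Rgs4 and Rgs9, which speed the shut-off of inhibitory G proteins, fell at 12 weeks by 0.86 and 0.49 on the log2 scale (edgeR adjusted p = 0.00109 and 0.00178). Rgs2, another member of that family, and Arrb1, which encodes a beta-arrestin that uncouples receptors, rose by 0.69 and 0.27 (edgeR adjusted p = 0.0121 and 0.0310). Among 11 PKA targets and related genes downstream of the receptors, 0 were called at 4 weeks, and Pde10a, a striatal phosphodiesterase, fell by 0.43 at 12 weeks (edgeR adjusted p = 0.0374).

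Genes that mark the Drd1 and Drd2 neurons were read as separate lists. Of the 8 direct-pathway genes, 4 had higher estimates in KO at 4 weeks (median 0.06) and 6 at 12 weeks (median 0.07). Of the 7 indirect-pathway genes, 2 had higher estimates at each age (medians -0.28 and -0.19). Among the 8 direct-pathway genes other than the receptors, Pdyn was higher at 4 weeks, and Pdyn and Tac1 at 12 weeks. Pdyn, the precursor of dynorphin, averaged 179 ± 32.4 CPM in KO and 86.4 ± 25.7 CPM in WT at 12 weeks (SD, n = 5 each; log2 fold change 1.03 ± 0.23, SE, edgeR adjusted p = 0.0157). Tac1, the precursor of substance P, changed by 0.43 ± 0.09 (SE, edgeR adjusted p = 0.0129) at 12 weeks and by 0.30 ± 0.20 (adjusted p = 0.466) at 4 weeks. Of 7 indirect-pathway genes, Ptprm was lower at 4 weeks (-0.34 ± 0.06, SE, edgeR adjusted p = 0.00505). At 12 weeks Ptprm (-0.36 ± 0.07, adjusted p = 0.00788) and Grik3, a kainate receptor subunit (-0.31 ± 0.06, adjusted p = 0.00548), were lower.

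Of 8 pan striatal neuron genes, 0 were called at 4 weeks and 3 fell at 12 weeks. These were Rarb, a retinoic acid receptor (-0.37, edgeR adjusted p = 0.00442), Scn4b, a sodium channel subunit (-0.46, adjusted p = 0.0203), and Bcl11b, a transcription factor of striatal neurons (-0.33, adjusted p = 0.0385). The list median was -0.34 at 4 weeks and -0.23 at 12 weeks. Without the 4 libraries with high cortical scores the 4-week median was 0.18 with 0 called, and the medians of other lists moved too: from -0.23 to 0.23 for PKA targets, from -0.28 to 0.03 for indirect-pathway genes, from 0.06 to 0.29 for direct-pathway genes and from 2.16 to -1.23 for cortical markers. In that fit Tac1 rose by 0.81 (edgeR adjusted p = 0.00709), Pdyn by 0.87 (adjusted p = 0.0302) and Adcy1 by 0.82 (adjusted p = 0.0110), and Ptprm fell by 0.36 (adjusted p = 0.0200). Of the 8 cortical and hippocampal markers, 0 were called at 4 weeks, and of the 4 tested at 12 weeks Nptx1, a secreted synaptic protein of excitatory neurons, was lower (-0.97, edgeR adjusted p = 0.00119).

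Likeness to each receptor was measured as Pearson's r over the 12 WT group means of log2(CPM + 0.5), among genes with at least 1 CPM in 1 of those groups. The 12 points share libraries across genes. The 5 genes most like Drd1 were St8sia3, Rundc1, Gm9754, Bcr and Slc6a6 (r from 0.985 to 0.990). Those most like Drd2 were C130060K24Rik, Klhl13, A930024N18Rik, Tns1 and Ebf1 (r from 0.964 to 0.9745). For Drd5 they were Arpc5, Dnah10, Cntnap5c, Enox2 and Cdk5rap1 (0.929 to 0.967), for Drd3 Rfx4, Ttc38, Lhcgr, Zeb1 and Pipox (0.934 to 0.950), and for Drd4 Reps2, Ttc7b, Tmem56, Plekhs1 and Nmt2 (0.934 to 0.960). Between the receptors r was highest for Drd2 with Drd3 (0.823) and lowest for Drd2 with Drd4 (-0.58), and Drd1 with Drd2 gave 0.576. With the group means taken without the libraries set apart, the genes named ranked 1 to 10 for their receptor, and those 3 values were 0.837, -0.60 and 0.565.

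Within striatum likeness was read over the 30 libraries after group means were subtracted, among 11242 other genes with a mean of at least 5 CPM. Among the genes most like Drd1 were Kcnab1, Cacna2d3, Pde1b and Pde10a (r from 0.972 to 0.978), and among those most like Drd2 were Pde10a, Actn2, Drd1 and Kcnab1 (r from 0.970 to 0.9747). Drd2 ranked 7 for Drd1 and Drd1 ranked 4 for Drd2 (r = 0.971). Adora2a, an indirect-pathway adenosine receptor, followed Drd1 (r = 0.958) about as closely as it followed Drd2 (r = 0.959). Pdyn followed neither, with r of 0.01 for Drd1 and -0.03 for Drd2. Over the 26 striatal libraries not set apart r fell to 0.917 between Drd1 and Drd2, with Drd2 ranked 120 for Drd1 and Drd1 ranked 20 for Drd2. Adora2a then gave 0.895 with Drd1 and 0.878 with Drd2, Pde10a gave 0.942 and 0.9402, and Pdyn gave -0.35 and -0.36.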

How the data were processed

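RNA-seq libraries of 6 brain regions, 2 ages and 3 genotypes were grouped by their labels. The authors deposited expected counts per gene, not always whole (77.9% of values above 0 were not whole). Salmon and mm10 are named in the submitters' processing notes with no version or role, and no source used here names the annotation. Every column was matched to a sample (0 were left over).

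Expected counts were rounded and fitted with edgeR 4.0.16 (R 4.3.3): TMM, filterByExpr by group, glmQLFit and glmQLFTest, per region and age over the 3 genotypes, per region over both ages, and per age over all regions, with adjustment over all genes tested. Calls are at an adjusted p under 0.05. SE is the size of the log2 fold change divided by the square root of F. The script was tested on simulated data. Region levels and ratios were compared by exact permutation in scipy 1.17.1, with a pseudocount of 0.5 CPM for region levels. DESeq2 1.42.0 and limma 3.58.1 served as alternatives, beside other scaling, no filter, covariates, a replicate block and each library left out. Fits with the striatal or thalamic score, fits with the dopamine score between ages, and all values without the 13 libraries set apart were added after seeing the data.

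Chi-square per degree of freedom was at least 8.27 between any of 390 pairs of replicate libraries, so no pair of them was alike to within counting noise; independence of the libraries was not established, and each counted as 1 sample. In 16 libraries at 4 weeks at most 5.55% of values were whole; this library subset entered as a covariate. The floor of 3 counts covers counting error only. The receptors and the gene lists were chosen with earlier results of these data known. The genes named are the receptors, up to 4 called members of each list with the smallest adjusted p at either age, the 5 genes most like each receptor (1 item is not reported here), and Adora2a and Pdyn in the striatal likeness as pathway markers.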

Additional observations from a re-analysis of the deposited data

Results flagged for a closer look

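In 16 of 182 groups tested, the highest or lowest library stood far from the others by Dixon's gap ratio at the 95% level. A rate of 1 in 20 would give about 9.1 such groups. That rate does not hold where all other libraries are at 0, as in some cortical Drd3 groups below. The numbers 16 and 9.1 therefore cannot be compared directly. For Drd1, KO replicate 4 in hippocampus at 12 weeks held 17.98 CPM, the other 4 holding 6.28 to 8.84 CPM. In somatosensory cortex at 12 weeks HET replicate 5 held 29.8 CPM of Drd1 (others 5.76 to 7.71) and KO replicate 2 held 10.8 CPM (others 6.49 to 7.72). For Drd2, that HET replicate 5 held 17.3 CPM (others 0.124 to 0.458), KO replicate 51 in somatosensory cortex at 4 weeks held 3.28 CPM (others 0.210 to 0.751), and HET replicate 93 in prefrontal cortex at 4 weeks held 1.16 CPM (others 0.421 to 0.564).

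Drd3 in striatum at 4 weeks was 1.69 CPM in WT replicate 913 and 0.283 to 0.462 CPM in the other WT libraries. The other Drd3 cases lay in cortex and rest on 1 to 5 counts. Prefrontal WT replicate 142 at 4 weeks held 0.0197 CPM and prefrontal KO replicate 4 at 12 weeks held 0.0195 CPM, with 0 in the others. Somatosensory WT replicate 92 at 4 weeks held 0.0246 CPM, WT replicate 2 at 12 weeks held 0.0383 CPM, and HET replicate 162 at 4 weeks held 0.108 CPM.

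Drd4 in thalamus at 12 weeks was lowest in KO replicate 2, at 0.116 CPM against 0.894 to 1.18 CPM. Drd5 was 12.4 CPM in thalamus KO replicate 163 at 4 weeks (others 4.93 to 6.63), 1.69 CPM in somatosensory KO replicate 4 at 12 weeks (others 0.586 to 0.885), and 4.11 CPM in striatal HET replicate 1 at 12 weeks, below the other 4 (5.25 to 5.65).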

How the results depend on the processing

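Of 1143 values recomputed under an alternative, 1112 kept their direction and side of the threshold or, for a count of calls, stayed within 1.5 times the count with all libraries. Many were counts that began at 0 or changes far from the threshold, and they share libraries, so most could hardly move. Among called age changes, hippocampal Drd3 lost its call in 10 of 16 alternatives and thalamic Drd5 in 4 of 18. Nigral Drd5 lost it in 2 of 18, nigral Drd2 in 1 of 18 and thalamic Drd3 in 0 of 18. Calls between KO and WT went from 0 to 1 with DESeq2 (thalamic Drd1 at 4 weeks), and ranged from 0 to 1 when each library was left out, the 1 being striatal Drd5 at 4 weeks without WT replicate 42. Calls between ages went from 5 to 3 with WT libraries only (fewer samples; 3 of the 5 were lost, hippocampal Drd3 and thalamic and nigral Drd5, and somatosensory Drd2 was gained), to 3 with the dopamine score as a covariate, to 4 with no filter and to 7 without the libraries set apart, and ranged from 4 to 6 with a library left out. Without the libraries set apart, the KO change in striatum at 4 weeks turned to 0.20 for Drd1 and 0.27 for Drd2, and the HET change in somatosensory cortex at 4 weeks to -0.14 for Drd1 and -1.43 for Drd2. With the striatal score as a covariate the latter was -0.54, and that of Drd1 at 12 weeks was -0.0105. The Drd1 to Drd2 ratio of KO against WT at 4 weeks ranged from -0.0532 to 0.00406 with a library left out. Under a replicate block, possible at 12 weeks, 0 receptors were called in KO and 0 in HET. The paired ratio difference of 0.11 in KO had an exact sign permutation p of 0.1875. With 5 pairs this permutation cannot give a p under 0.05, so it does not decide whether the ratio differed. The labels do not say that numbers pair libraries, and the deviations of same-numbered libraries correlated above 0.1 in 25 of 60 pairs. In 26 of these 60 pairs the WT library correlated best with its own number, among 5 candidates. Whether the numbers mark a shared set was not tested, and the main fits at 12 weeks do not use them. The cause of the other changes was not tested. Separated neighbouring regions went from 17 of 50 pairs to 16 with library totals alone, 18 with a pseudocount of 0.1 CPM and 12 without the libraries set apart. In the last case fewer libraries raised the smallest possible exact p. Depth limits Drd3, with under 3 counts in 30 of 31 libraries in each cortical area and 4 of 31 in each of hippocampus and thalamus, and Drd4, with under 3 counts in 16 of 32 libraries in substantia nigra and 5 of 30 in striatum.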
